A study of Mus musculus with 23 samples.

Results

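Left ventricles of control mice that breathed filtered air were compared between a later and an earlier start of exposure. The members were chosen by their labels alone: the 4 libraries of mice that started at an age of 3 months and the 4 libraries of mice that started at 3 weeks, 8 of the 23 libraries of the series. Every difference is given as 3-month start minus 3-week start, so a positive value means a higher level in the hearts of the older mice. The study concerned e-cigarette aerosol and the heart, and its other 15 libraries came from mice that breathed vehicle aerosol (7 libraries) or nicotine aerosol (8 libraries), with the same starting ages.

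All mice were of the FVB strain, an inbred albino laboratory strain. Both air groups followed the same regime, a daily session of 4 hours, 5 days each week, for 3 months, and breathed filtered air with no aerosol. Mice that started at 3 weeks had just reached weaning age and were young adults when the hearts were taken, while mice that started at 3 months were mature adults throughout. The age at the start and the age at the end of exposure cannot be told apart in this design, since the length of exposure was the same. The labels give no sex, cage, litter, day of collection or sequencing batch. Nor do they say that the libraries of a group came from separate animals, so a p-value sets a difference against the spread of these libraries alone, part of which may be technical. The libraries of both groups are numbered 1, 2, 4 and 5 in the labels.

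The mouse heart finishes most of its cell division soon after birth and afterwards grows mainly by enlargement of its muscle cells. Myocytes then rely on fatty acid oxidation, while capillary endothelium, fibroblasts and resident macrophages keep dividing at low rates. Growth hormone signalling and the deposition of new matrix are also known to decline between adolescence and adulthood. Many signalling genes of the heart, among them the immediate early genes (transcription factor genes switched on within minutes of a stimulus), also respond quickly to stress.

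The 8 air libraries held between 13394536 and 17821550 counts each. The mean total was 16130000 ± 1340000 (SD, n = 4) at the 3-month start and 15970000 ± 1980000 (SD, n = 4) at the 3-week start (exact two-sided permutation test, p = 0.886; the smallest p this design can give is 0.0286). The share of counts from mitochondrial genes was 8.79% ± 0.416 against 8.74% ± 0.279 (exact permutation p = 0.857, n = 4 a group). Cardiac muscle was checked with Myh6, the adult cardiac myosin heavy chain, and ventricular muscle with Myl2, the ventricular myosin light chain. Markers of atrial muscle varied between libraries and are given with the contractile genes below. In CPM (counts scaled to a common library size with TMM normalisation), Myh6 stood at 35920 to 50304 in the 3-week and 40918 to 49380 in the 3-month libraries, and Myl2 at 5391 to 6946 and 5414 to 6310. No gene of the lung epithelium list passed the filter on low counts.

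The 3-week group was not uniform. Over genes with a log2 CPM of at least 1, 3-week libraries 2 and 4 correlated with each other at r = 0.991 and libraries 1 and 5 at r = 0.982, while the 4 pairs across these sets ran from 0.953 to 0.966. Libraries 1 and 5 correlated with the 3-month libraries at 0.978 to 0.989, and libraries 2 and 4 at 0.963 to 0.971. These correlations are across genes of library pairs and describe the libraries only. The biological coefficient of variation was 0.223 in the 3-week group and 0.101 in the 3-month group, and among 12313 genes whose mean log2 CPM reached 1 the SD of log2 CPM exceeded 1 for 216 genes in the former and 24 in the latter. The gene lists, and the single genes that moved most between these libraries, are therefore also given without 3-week libraries 1 and 5 and without 2 and 4. Libraries 1 and 5 were set aside with earlier results of these data known, and they lie nearer the 3-month group. Leaving them out thus favours wider differences. The p-values of that setting describe the subset and are no independent support. No source used here says what sets 3-week libraries 1 and 5 apart from 2 and 4. Whether they were collected, handled or labelled differently was not tested, so each 3-week value holds for the libraries as labelled.

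Thbs1, which encodes the matricellular protein thrombospondin-1, shows the split most plainly. Its level was 742 CPM in 3-week library 1, 11.9 in library 2, 6.94 in library 4 and 690 in library 5, against 946, 834, 699 and 619 in 3-month libraries 1, 2, 4 and 5. High and low levels were thus present within 1 group, and libraries 1 and 5 lay inside the 3-month range. The other 3-week groups held only low values, 1.98 to 20.4 CPM under vehicle (n = 3) and 4.24 to 7.04 under nicotine (n = 4), while the 3-month vehicle and nicotine libraries ranged from 411 to 719 and from 349 to 1023 (n = 4 each). The 3-week air libraries 1 and 5 were the only 3-week libraries with Thbs1 at the level of the 12 3-month libraries. Nr4a3, an orphan nuclear receptor of the immediate early class, followed the same order, with 304, 19.3, 4.44 and 178 CPM in 3-week libraries 1, 2, 4 and 5 and 151, 154, 79.9 and 103 in the 3-month libraries.

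**Figure D1:**
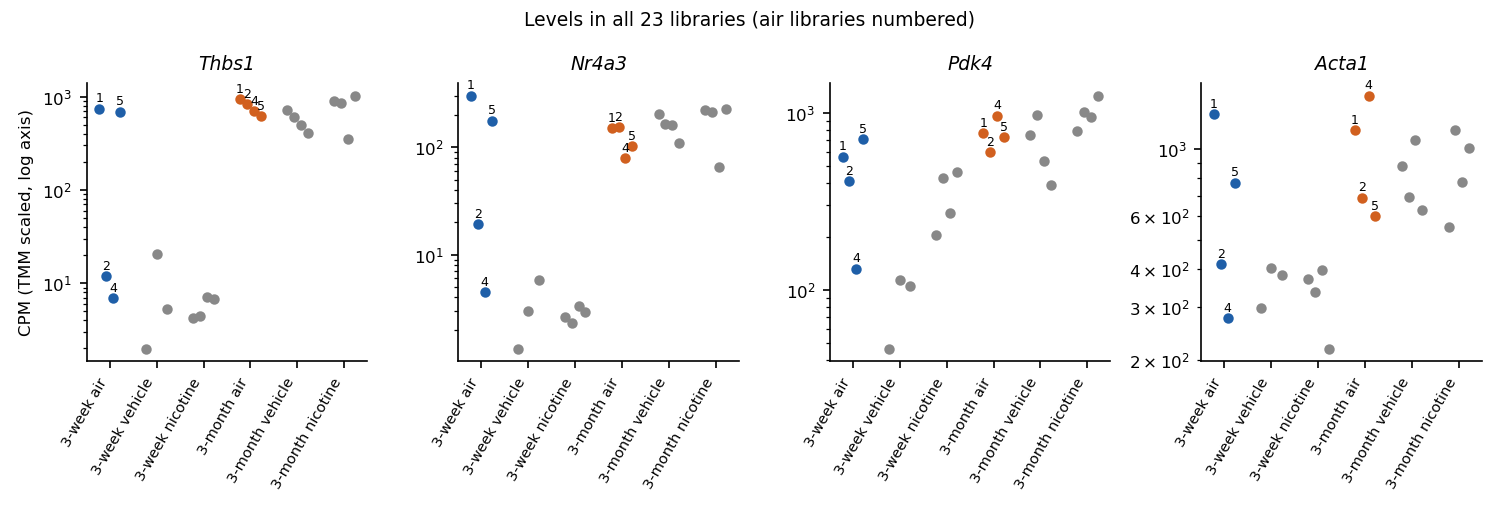
TMM-scaled CPM on a log axis of Thbs1, Nr4a3, Pdk4 and Acta1 in each of the 23 libraries (points), by starting age and treatment, with the air libraries numbered. For Thbs1 and Nr4a3, 3-week air libraries 1 and 5 sit with the 3-month libraries, and 3-week air libraries 2 and 4 lie below all 3-month libraries.

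With all libraries, 1 of 15500 genes tested passed the threshold (edgeR quasi-likelihood test, adjusted p under 0.05), which is 0.00645% of the genes. DESeq2 called 14 genes higher (0.0903%) and 28 lower (0.181%). The edgeR call was Apod, and it rose at the 3-month start. An unadjusted p under 0.05 was reached by 1408 genes (9.08%), of which 535 (3.45%) were higher and 873 (5.63%) lower at the 3-month start. The groups did not overlap for 334 genes that were higher (2.15%) and 442 that were lower (2.85%). When 3-week libraries 1 and 5 were left out, 849 of 15817 genes passed (5.37%), 275 higher (1.74%) and 574 lower (3.63%). When 3-week libraries 2 and 4 were left out instead, 2 of 15801 passed, both lower (0.0127%), and no gene passed in the higher direction. Those were Lyve1 and the antisense RNA C78197 (named after their values were seen), and neither was among the 849. Leaving out 3-week library 1 alone gave 68 genes and library 5 alone gave 7, while leaving out 3-week library 2 or 4, or any single 3-month library, gave 0.

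Apod encodes apolipoprotein D, a small lipid-binding protein of the lipocalin family that is known to increase with age in several tissues. Its level was 6.60, 8.03, 8.61 and 10.9 CPM in 3-week libraries 1, 2, 4 and 5, and 18.8, 17.8, 17.4 and 19.7 CPM in the 3-month libraries. The lowest 3-month library lay well above the highest 3-week library, and the groups differed by 1.11 ± 0.18 (SE) on the log2 scale (edgeR adjusted p = 0.0426). The difference was of the same size without 3-week libraries 1 and 5 (1.14, adjusted p = 0.0033) and without 2 and 4 (1.09, adjusted p = 0.165). The adjusted p missed the threshold without 3-week library 2 (0.168) or 4 (0.214) and without 3-month library 1 (0.117), 2 (0.07), 4 (0.0627) or 5 (0.232). It also missed it in a fit of the 8 air libraries alone (0.0919). In libraries that this comparison did not use, the same difference between starting ages was 0.44 under vehicle (adjusted p = 0.113) and 0.20 under nicotine (adjusted p = 0.455). The difference between air and the aerosols was itself not past the threshold (air minus vehicle 0.67, adjusted p = 0.323; air minus nicotine 0.91, adjusted p = 0.137).

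The 4 next genes on the higher side had groups that did not overlap but adjusted p-values above 0.05. Vgll2, a transcriptional cofactor best known from skeletal muscle, stood at 2.78, 1.42, 1.597 and 2.21 CPM in the 3-week and 5.70, 8.08, 10.6 and 7.59 CPM in the 3-month libraries. This was the widest of the 5 differences, 1.997 ± 0.38 on the log2 scale (adjusted p = 0.0918). Ucp3, the mitochondrial uncoupling protein of muscle and a target of fatty acid signalling, stood at 32.9, 32.0, 18.9 and 24.9 CPM against 73.5, 60.8, 137 and 63.4 CPM. All 3-month values exceeded all 3-week values, and 3-month library 4 stood far above the rest of its group (1.62 ± 0.35, adjusted p = 0.133). Vwc2, a secreted antagonist of bone morphogenetic proteins, was at 3.39, 3.36, 2.15 and 2.08 CPM against 6.31, 4.43, 7.01 and 6.10 CPM (1.11 ± 0.20, adjusted p = 0.0918). Amy1, an amylase gene whose reads can be shared with near-identical copies, was at 14.96 to 18.5 against 22.4 to 32.5 CPM (0.69 ± 0.13, adjusted p = 0.0918). In 3 cases such a difference was met again in other libraries: Ucp3 rose by 1.57 and Vwc2 by 1.04 with starting age under vehicle (adjusted p = 0.0166 and 0.00893), and Vgll2 by 1.96 under nicotine (adjusted p = 0.00515). The other values did not pass: Vgll2 differed by 0.94 under vehicle (adjusted p = 0.12), and under nicotine Ucp3 by 0.40 (adjusted p = 0.438) and Vwc2, with the opposite sign, by -0.56 (adjusted p = 0.0784). Amy1 differed by 0.15 under vehicle and 0.11 under nicotine (adjusted p = 0.478 and 0.567).

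On the lower side no gene passed, and the 5 genes with the smallest p again had groups that did not overlap. Iigp1, an interferon-inducible GTPase of cell-autonomous defence with close paralogs, was at 23.8, 35.3, 25.2 and 27.6 CPM in the 3-week and 17.2, 9.81, 12.01 and 14.1 CPM in the 3-month libraries (-1.08 ± 0.20, adjusted p = 0.0918). Socs2, the feedback inhibitor of the growth hormone receptor, was at 31.5, 29.01, 27.5 and 30.2 CPM against 20.2, 13.5, 17.3 and 18.05 CPM. The 3-week values of Socs2 lay close together, libraries 1 and 5 included, and the difference was -0.78 ± 0.17 (adjusted p = 0.133). Ret, the receptor tyrosine kinase for glial cell line-derived neurotrophic factors, stood at 7.11 to 9.68 against 4.67 to 5.56 CPM (-0.72 ± 0.15, adjusted p = 0.133). Rin3, a guanine nucleotide exchange factor of endosomes, stood at 22.9 to 43.8 against 14.98 to 18.7 CPM (-0.81 ± 0.18, adjusted p = 0.133). Nudt16l1, a nucleic acid-binding regulator of DNA repair, stood at 15.5 to 21.6 against 10.5 to 14.4 CPM (-0.59 ± 0.13, adjusted p = 0.133). Nudt16l1 fell with starting age in both aerosol groups, by 0.48 under vehicle (adjusted p = 0.0288) and by 0.57 under nicotine (adjusted p = 0.00997), and Iigp1 fell by 0.75 under nicotine (adjusted p = 0.0246). Iigp1 under vehicle (-0.30, adjusted p = 0.341) and Socs2 under vehicle and nicotine (-0.27 and -0.37, adjusted p = 0.287 and 0.152) did not pass. Rin3 had the opposite sign in both aerosol groups, 0.13 under vehicle and 0.092 under nicotine (adjusted p = 0.638 and 0.744). Ret was at -0.38 under vehicle (adjusted p = 0.113) and 0.48 under nicotine (adjusted p = 0.0576), and its air minus nicotine difference of -1.21 passed (adjusted p = 0.0255).

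The groups did not overlap for these 10 genes, so by construction their differences kept their sign in either subset of the 3-week libraries. They were also picked by p from these same libraries. Without 3-week libraries 1 and 5 all 10 passed, with Vgll2 at 2.40 (adjusted p = 0.00766), Ucp3 at 1.70 (0.036), Iigp1 at -1.20 (0.00683), Socs2 at -0.72 (0.043) and Nudt16l1 at -0.75 (0.00456). Without libraries 2 and 4 none passed, and the same genes stood at 1.68, 1.54, -0.95, -0.83 and -0.40.

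**Figure D2:**
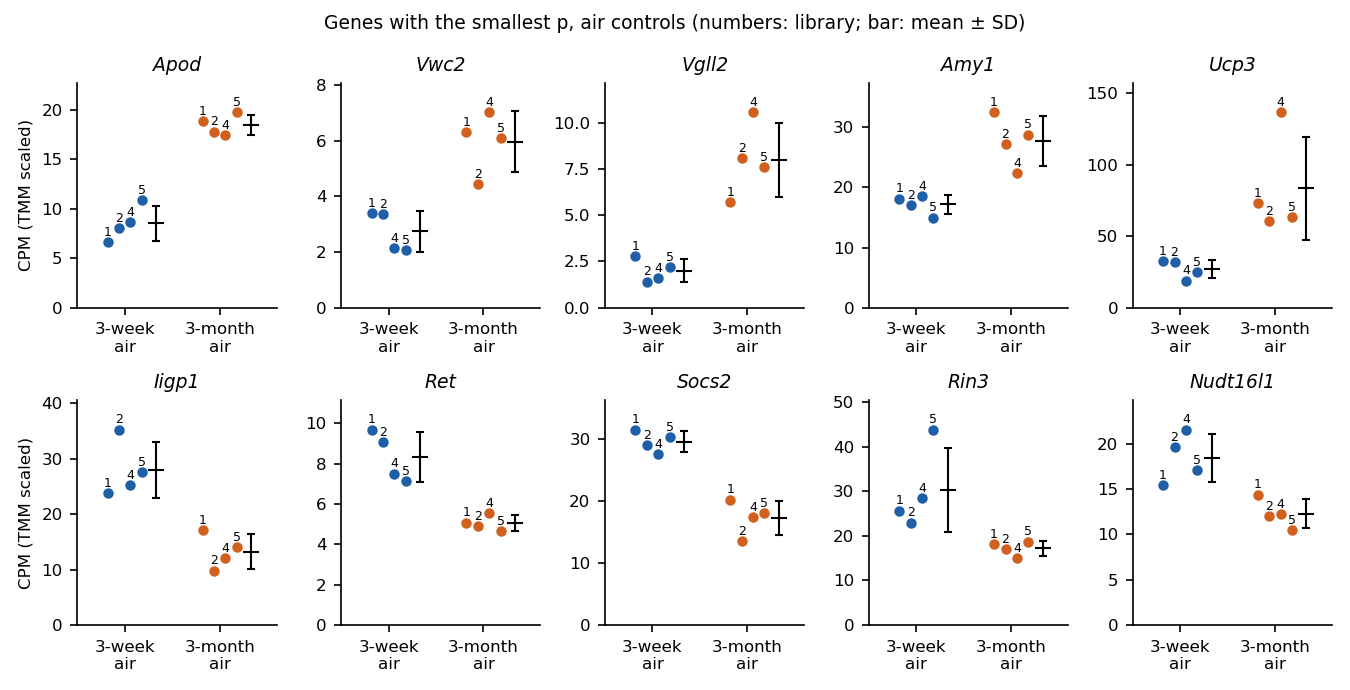
TMM-scaled CPM of Apod and of the 9 genes next in p (4 higher, 5 lower at the 3-month start) in each air library, with library numbers; bars show mean ± SD (n = 4 a group). The groups do not overlap for any of the 10 genes, and Ucp3 in 3-month library 4 (137 CPM) lies apart from the other 3-month libraries.

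Genes of the cell cycle and DNA replication stood lower at the 3-month start as a group, and the size depended on which 3-week libraries were counted. Of 26 measured members none passed with all libraries, 16 had an unadjusted p under 0.05 in the lower direction and 0 in the higher, and 24 had a negative difference. The median log2 difference was -0.76, beside -0.0051 over all genes tested. Without 3-week libraries 1 and 5, 17 of the 26 passed, all lower, beside 3.63% of all genes, with a median of -1.26 (0.012 over all genes). Without 3-week libraries 2 and 4 none passed and the median was -0.16 (0.0038 over all genes). The lower side held 5.63% of all genes at an unadjusted p under 0.05.

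Mki67, the proliferation marker Ki-67, was at 5.12, 14.2, 12.6 and 2.89 CPM in 3-week libraries 1, 2, 4 and 5, and at 4.05, 1.79, 3.79 and 2.99 CPM in the 3-month libraries. Only 3-week libraries 2 and 4 stood clearly above the rest, with library 5 inside the 3-month range, and the difference was -1.47 ± 0.44 (adjusted p = 0.257). It was -2.10 without libraries 1 and 5 (adjusted p = 0.00363) and -0.35 without libraries 2 and 4. Top2a, the topoisomerase that untangles replicated chromosomes, followed the same order with 4.26, 9.50, 7.98 and 1.74 CPM against 3.23, 1.44, 2.34 and 1.99 CPM (-1.40 ± 0.39, adjusted p = 0.225). Cdk1, the mitotic kinase, was at 1.73, 2.89, 3.05 and 0.470 CPM against 0.892, 0.718, 0.569 and 0.871 CPM (-1.42 ± 0.41, adjusted p = 0.238). Aurkb and Birc5, 2 subunits of the chromosomal passenger complex, were the members whose groups did not overlap: Aurkb was at 0.679, 1.99, 2.01 and 0.335 CPM against 0.179 to 0.311 CPM. Over all genes 2.85% were lower without overlap. Among replication licensing factors, Mcm5 stood at 4.16 to 9.86 against 2.57 to 5.37 CPM (-0.74 ± 0.23) and Mcm6 at 3.69 to 10.1 against 2.21 to 4.29 CPM (-0.78 ± 0.25). For 23 of the 26 genes both 3-week libraries 2 and 4 lay above every 3-month library, and for 2 of the 26 both libraries 1 and 5 did; over all genes tested these shares were 21.8% and 10.1%. In other libraries the list's median was -0.85 under vehicle, with 6 of 26 passing as lower and 1 as higher, and -0.42 under nicotine, with 2 passing as lower. Over all genes 7.38% passed as lower and 5.09% as higher under vehicle, and 4.49% as lower under nicotine. Fewer dividing cells and less of these transcripts per cell cannot be told apart in bulk tissue.

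Promoters of Mki67, Top2a and Cdk1 are shown because each carries both sequence elements that textbooks attach to mitotic genes. The letters are the 150 bases before the annotated start on the gene's strand, 5′ to 3′, from RefSeq on GRCm38.p6; capitals mark the cell cycle homology region letters TTTGAA and the CCAAT box, each found on either strand (TTCAAA and ATTGG on the other).
Mki67: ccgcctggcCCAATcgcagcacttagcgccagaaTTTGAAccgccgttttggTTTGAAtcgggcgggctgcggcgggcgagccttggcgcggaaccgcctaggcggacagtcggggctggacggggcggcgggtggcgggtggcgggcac
Top2a: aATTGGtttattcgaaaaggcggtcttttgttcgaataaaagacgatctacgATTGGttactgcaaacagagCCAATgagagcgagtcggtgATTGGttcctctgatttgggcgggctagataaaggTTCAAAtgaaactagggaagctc
Cdk1: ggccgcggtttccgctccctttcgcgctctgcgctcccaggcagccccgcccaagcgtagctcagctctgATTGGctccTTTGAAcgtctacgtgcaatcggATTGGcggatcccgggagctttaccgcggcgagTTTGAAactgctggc
They lie at chr7:135716380-135716529, chr11:99024190-99024339 and chr10:69352913-69353062, each on the minus strand. Mki67 held 2 copies of TTTGAA and 1 of CCAAT, Top2a held 1 and 4, and Cdk1 held 2 and 2. The same stretches of Ccnb2 and Bub1b, looked up but not shown, held 3 and 1 copies of CCAAT and none of TTTGAA. Both genes did carry TTTGAA in the wider windows counted next. In windows from 250 bases before to 50 after the start, TTTGAA was present in 9 of 21 windows of the cell cycle list (42.9%; 20 of its genes were matched) against 17.9% of all 32851 windows. CCAAT was present in 18 of 21 (85.7%) against 37.4%. In the stretches shown no match of one motif shared a base with a match of the other, and a match describes the letters, not binding.

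Interferon-stimulated genes were also lower at the 3-month start, and here 3-week library 5 partly joined libraries 2 and 4. All 23 measured members had a negative difference, 15 of them with an unadjusted p under 0.05 (5.63% of all genes were lower at that p). None was past the adjusted threshold, and the median was -0.61. Without 3-week libraries 1 and 5, 8 passed, all lower (median -0.80), beside 3.63% of all genes. Without libraries 2 and 4 none passed, but the median was still -0.34. In the other treatments the list went the same way, with medians of -0.93 under vehicle (12 of 23 passing, all lower) and -0.505 under nicotine (2 passing, both lower). Over all genes 7.38% passed as lower under vehicle and 4.49% under nicotine.

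Ifit3, an interferon-induced RNA-binding protein with a near-identical neighbouring copy, was at 1.67, 4.09, 3.89 and 3.29 CPM in 3-week libraries 1, 2, 4 and 5 and at 1.78, 1.08, 1.26 and 1.99 CPM in the 3-month libraries. Of the 3-week libraries 3 stood above the 3-month range and library 1 inside it (-1.08 ± 0.27, adjusted p = 0.179). Irf9, the DNA-binding subunit of the interferon-stimulated gene factor, showed the same order with 8.51, 19.9, 16.03 and 14.4 CPM against 9.20, 7.96, 7.96 and 10.1 CPM (-0.74 ± 0.19, adjusted p = 0.195). Stat2, its partner, was at 11.8, 26.4, 25.1 and 23.1 CPM against 12.01 to 15.5 CPM (-0.66 ± 0.25, adjusted p = 0.393). Rsad2, the antiviral enzyme viperin, was at 4.13, 12.8, 15.1 and 6.78 CPM against 4.53 to 5.69 CPM (-0.92 ± 0.35, adjusted p = 0.421). Ifit3 fell with starting age by 1.05 under vehicle (adjusted p = 0.017) and by 1.24 under nicotine (adjusted p = 0.00651), and Irf9 by 0.93 and 0.63 (adjusted p = 0.00927 and 0.0441). Genes of antigen presentation leaned the same way in sign only: all 12 measured MHC and antigen processing genes were negative, with a median of -0.26 and 0 at an unadjusted p under 0.05, beside 5.63% of all genes. Their median was -0.24 without 3-week libraries 1 and 5 and -0.16 without libraries 2 and 4, with 0 members passing in either.

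Capitals mark paired half-sites of the interferon-stimulated response element, here 2 copies of GAAA with 2 bases between them on either strand (TTTC on the other), in the 150 bases before the start of 3 members.
Ifit3: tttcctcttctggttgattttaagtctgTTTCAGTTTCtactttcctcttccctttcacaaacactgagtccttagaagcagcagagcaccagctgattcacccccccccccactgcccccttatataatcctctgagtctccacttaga
Ifit1: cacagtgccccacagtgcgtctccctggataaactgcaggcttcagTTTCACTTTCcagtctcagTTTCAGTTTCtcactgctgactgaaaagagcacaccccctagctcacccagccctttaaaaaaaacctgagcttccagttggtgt
Isg15: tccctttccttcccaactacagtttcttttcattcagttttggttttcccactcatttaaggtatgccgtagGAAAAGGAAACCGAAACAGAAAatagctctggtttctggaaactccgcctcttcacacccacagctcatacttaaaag
These stretches are chr19:34583379-34583528 and chr19:34640739-34640888 on the plus strand and chr4:156200819-156200968 on the minus strand (RefSeq, GRCm38.p6). Ifit3 held 1 match, Ifit1 held 2 and Isg15 held 3 that overlap each other. The pattern was present in 11 of 20 windows of the list (55%; 17 of its genes were matched) against 3.44% of all windows, and in 1 of 21 windows of the cell cycle list.

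**Figure D3:**
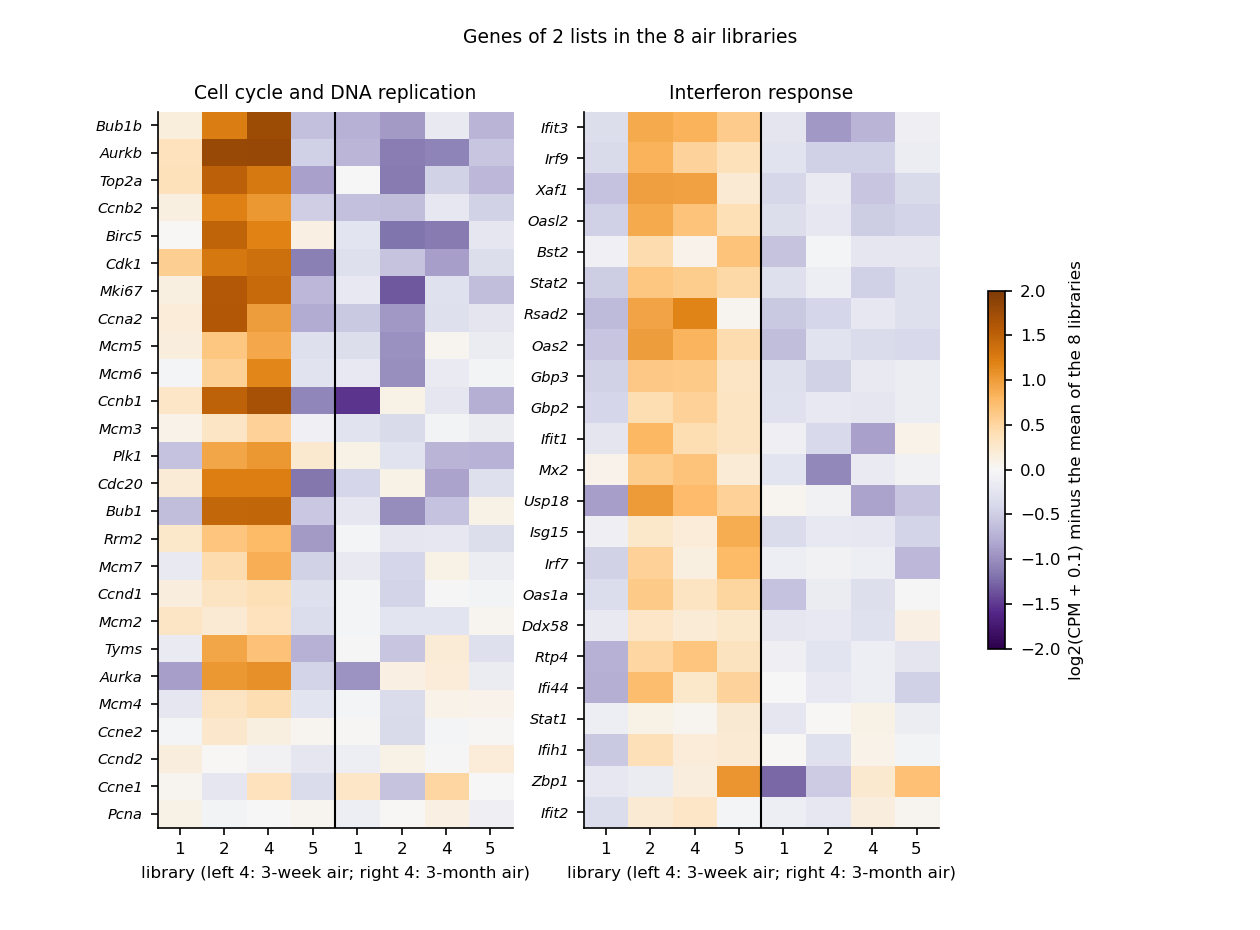
Log2(CPM + 0.1) minus the mean of the 8 air libraries, by gene (rows, ordered by p) and library (columns), for the cell cycle and interferon lists; orange is above and purple below the mean. Cell cycle genes are high in 3-week libraries 2 and 4, while many interferon genes are high in 3-week libraries 2, 4 and 5.

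Macrophage genes were mostly negative in the 3-month minus 3-week difference as well, and their summed level was highest in 3-week library 1. Of 14 measured members 7 had an unadjusted p under 0.05, all lower at the 3-month start, beside 5.63% of all genes; 13 were negative, and none passed; the median was -0.38. Csf1r, the receptor for macrophage colony-stimulating factor, was at 50.2, 42.2, 41.1 and 38.4 CPM in the 3-week and 32.3, 29.8, 32.1 and 33.9 CPM in the 3-month libraries, with no overlap (-0.43 ± 0.11, adjusted p = 0.183). C1qa and C1qc, chains of the first complement component made by resident macrophages, also did not overlap (-0.40 ± 0.15 and -0.41 ± 0.13, adjusted p = 0.421 and 0.304). Lyve1, the hyaluronan receptor of a resident macrophage subset and of lymphatic vessels, was at 22.3, 10.9, 14.99 and 24.8 CPM against 11.8, 9.15, 11.4 and 12.01 CPM. It was highest in 3-week libraries 1 and 5 (-0.71 ± 0.20, adjusted p = 0.225), and it passed when libraries 2 and 4 were left out (-1.07, adjusted p = 0.0317) but not when 1 and 5 were (-0.22, adjusted p = 0.52). The median of the list was -0.46 without libraries 2 and 4 and -0.27 without libraries 1 and 5. It was -0.0086 under vehicle and -0.05 under nicotine, with 0 members passing in either. The summed level of the list ran from 316.6 to 422.4 CPM in the 3-week and 252.9 to 293.8 CPM in the 3-month libraries, which do not overlap. Fewer macrophages and less of these RNAs per macrophage cannot be told apart.

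Genes of fibrillar collagens and their processing were mostly negative in sign. Those of the matricellular and elastic matrix were mostly positive in sign, with a median near 0. None of either list passed. Among 21 genes of the collagen list 15 were negative. At an unadjusted p under 0.05, 6 were lower and 1 was higher, beside 5.63% and 3.45% of all genes. The median was -0.18 with all libraries, -0.31 without 3-week libraries 1 and 5, where 4 members passed as lower (3.63% of all genes), and -0.039 without libraries 2 and 4, where 0 passed. Among 18 matricellular and elastic matrix genes 13 were positive. At an unadjusted p under 0.05, 1 was higher (5.56%, beside 3.45% of all genes) and 0 were lower. The median was 0.074 (0.17 without libraries 1 and 5, 0.047 without 2 and 4). Sparc, a collagen-binding matricellular protein, was not counted in the matricellular list and went the other way. It was at 459, 625, 649 and 482 CPM in the 3-week and 371, 387, 432 and 369 CPM in the 3-month libraries, without overlap (-0.51 ± 0.13, adjusted p = 0.179). Serpinh1, the collagen chaperone, was at 208, 261, 228 and 213 CPM against 171, 192, 189 and 161 CPM, also without overlap (-0.35 ± 0.11, adjusted p = 0.287). Col3a1, the type III collagen chain, was at 167, 360, 278 and 97.6 CPM against 132, 98.0, 164 and 118 CPM, so that library 5 fell below the 3-month range (-0.82 ± 0.28, adjusted p = 0.327). Without 3-week libraries 1 and 5 it fell by 1.32 (adjusted p = 0.00203), and without libraries 2 and 4 the difference was -0.04. Col1a1, Col4a1 and Postn, which encode type I and type IV collagen chains and periostin, differed by -0.26, -0.16 and 0.07, with adjusted p of 0.717, 0.756 and 0.944. Plod2, a collagen lysyl hydroxylase, was the member with an unadjusted p under 0.05 in the higher direction (0.40 ± 0.12, adjusted p = 0.266).

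The medians of the stress-responsive lists depended on which 3-week libraries were counted. The median of 20 inflammatory cytokine and NF-kB target genes was 0.16 with all libraries, 1.40 without 3-week libraries 1 and 5 and -0.14 without libraries 2 and 4. For 18 glucocorticoid targets the medians were 0.24, 1.26 and -0.23, and for 21 immediate early genes 0.29, 1.12 and 0.016. Without libraries 1 and 5, 12 of 20, 12 of 18 and 8 of 21 members passed as higher at the 3-month start, beside 1.74% of all genes in that setting, and 1 immediate early gene (Ier3) passed as lower. With all libraries none of the 3 lists had a member that passed. Neutrophil markers moved with these lists: the summed level of the 10 listed was 14.4, 2.57, 3.12 and 11.1 CPM in 3-week libraries 1, 2, 4 and 5 and 6.04 to 17.6 CPM in the 3-month libraries. The median difference of the 6 measured markers was 0.63 with all libraries, 3.82 without libraries 1 and 5, where 4 of the 6 passed as higher, and -0.079 without 2 and 4. The part of these cells in the values of the lists was not tested.

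Per1, a clock component that glucocorticoids also induce, was at 204, 69.2, 72.1 and 242 CPM in the 3-week and 250, 277, 262 and 244 CPM in the 3-month libraries. All 3-month values lay above all 3-week values, though libraries 1 and 5 came close (0.81 ± 0.27, adjusted p = 0.325; 1.86 without libraries 1 and 5, adjusted p = 1.44e-06; 0.22 without 2 and 4). Errfi1, a feedback inhibitor of the epidermal growth factor receptor, was at 201, 29.4, 16.7 and 264 CPM against 337, 267, 344 and 166 CPM (1.12 ± 0.52, adjusted p = 0.528). Ptgs2, the inducible cyclooxygenase, was at 22.6, 0.682, 0.278 and 16.9 CPM against 14.2 to 28.9 CPM, and its difference was 0.90 with all libraries, 5.195 without 1 and 5 (adjusted p = 6.08e-05) and -0.06 without 2 and 4. Cxcl1, a neutrophil-attracting chemokine, was the inflammatory gene whose air groups did not overlap, at 18.999, 14.7, 2.85 and 22.8 CPM against 38.8, 34.9, 49.1 and 27.1 CPM (1.33 ± 0.46, adjusted p = 0.363). Socs3, the inhibitor of cytokine signalling, had its 2 highest values in 3-week libraries 1 and 5, 56.9 and 57.6 CPM, above the 3-month range of 12.3 to 22.7 CPM. Under vehicle and nicotine the inflammatory list rose with starting age for 12 and 15 of its 20 members (medians 1.61 and 1.92), beside 5.09% and 5.03% of all genes.

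Some single genes of endothelial and developmental regulation, high in 3-week libraries 2 and 4, showed the opposite split. Aplnr, the apelin receptor of sprouting endothelium, was at 6.60, 93.2, 109 and 3.29 CPM in 3-week libraries 1, 2, 4 and 5 and at 7.75, 7.12, 10.05 and 12.01 CPM in the 3-month libraries. Libraries 2 and 4 alone were high, and the difference was -2.52 ± 0.78 with all libraries (adjusted p = 0.287), -3.46 without 1 and 5 (adjusted p = 0.000725) and 0.90 without 2 and 4. Apln, its ligand, was at 19.8, 31.2, 30.7 and 17.6 CPM against 13.3 to 19.4 CPM (-0.59 ± 0.19, adjusted p = 0.299). Mycn, a growth-promoting transcription factor, and Sox7, an endothelial one, were chosen after their values were seen: Mycn was at 1.36, 14.6, 13.6 and 1.14 CPM against 0.506 to 1.24 CPM, and Sox7 at 15.98, 48.7, 53.4 and 23.1 CPM against 15.2 to 21.3 CPM. Over the 17 endothelial markers the median was -0.20, and 3 had an unadjusted p under 0.05, all lower, beside 5.63% of all genes. The list's median was -0.20 without libraries 1 and 5, where 3 members passed as lower (3.63% of all genes), and -0.15 without 2 and 4, where 0 did. For 10 of the 17 genes both 3-week libraries 2 and 4 lay above every 3-month library, and for 3 both lay below. For libraries 1 and 5 these counts were 1 and 3. Over all genes tested the shares were 21.8% above and 23.8% below for libraries 2 and 4, and 10.1% and 7.84% for 1 and 5.

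No contractile gene passed with all libraries. None of 16 ventricular sarcomere genes reached an unadjusted p under 0.05, 8 were positive and 8 negative, and the median was -0.0069. The stress markers Nppa and Nppb, which encode the natriuretic peptides, differed by -0.23 ± 0.32 and -0.12 ± 0.25 (adjusted p = 0.852 and 0.900). Myh7, the slow myosin heavy chain, differed by 0.28 ± 0.17, Myh6 by 0.06 ± 0.12 and Atp2a2, which encodes the pump that refills the myocyte calcium store, by 0.23 ± 0.31 (adjusted p = 0.659, 0.901 and 0.844). Ankrd1, a stretch-responsive nuclear and sarcomeric protein, was at 2097 to 2729 CPM in the 3-week and 2704 to 3846 CPM in the 3-month libraries (0.44 ± 0.16, adjusted p = 0.368). Acta1, the skeletal actin of growing myocytes, was at 1305, 414, 275 and 773 CPM against 1152, 689, 1498 and 598 CPM (0.51 ± 0.36, adjusted p = 0.712); it rose by 1.51 without libraries 1 and 5 (adjusted p = 0.0184) and differed by -0.07 without 2 and 4. Markers of atrial muscle varied inside both groups: Myl7, the atrial myosin light chain, had 0 counts in 3-week libraries 2, 4 and 5, 33.6 CPM in library 1 and 0.686, 10.2, 14.3 and 40.6 CPM in 3-month libraries 1, 2, 4 and 5. The summed level of the 9 listed atrial markers ranged from 192.5 to 460.6 CPM in the 3-week and 155.4 to 349.8 CPM in the 3-month libraries. Nppa, given above as a stress marker, is among these 9 and made up much of the sum, at 121 to 256 and 94.3 to 247 CPM. The part of atrial tissue in other values was not tested.

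Among 29 genes of fatty acid uptake and oxidation 25 were positive, 4 had an unadjusted p under 0.05 (all higher, 13.8% beside 3.45% of all genes) and the median was 0.15. It was 0.24 without 3-week libraries 1 and 5 and 0.041 without libraries 2 and 4, with 1 and 0 members passing as higher. In the first of these settings 1.74% of all genes did. Besides Ucp3 they included Cpt1a, the enzyme that links long-chain fatty acids to carnitine for import into mitochondria (0.40 ± 0.16, adjusted p = 0.434), and Mlycd, which degrades malonyl-CoA (0.24 ± 0.11, adjusted p = 0.513). Pdk4, the kinase that closes pyruvate dehydrogenase during fasting, was at 567, 412, 132 and 711 CPM against 769, 603, 968 and 727 CPM (0.75 ± 0.38, adjusted p = 0.583). Its difference was 1.49 without libraries 1 and 5 (adjusted p = 0.0555) and 0.27 without 2 and 4. Under vehicle 17 of the 29 rose with starting age and 1 fell (median 0.45), and under nicotine 1 rose (median -0.0046). Over all genes 5.09% rose and 7.38% fell under vehicle, and 5.03% rose under nicotine. The nuclear genes of oxidative phosphorylation leaned lower, 27 of 30 negative, by a median of only -0.08 with 0 at an unadjusted p under 0.05.

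No gene of the growth hormone or clock lists passed with all libraries. In the growth hormone, IGF and thyroid list Socs2, Igf2 and Igfbp3 were lower without overlap (2.85% of all genes were) and Stat5a was higher. Igf2, the fetal growth factor, was at 35.7, 31.1, 32.3 and 42.7 CPM against 28.1, 27.1, 26.3 and 20.8 CPM (-0.47 ± 0.17, adjusted p = 0.368), and Igf1 differed by -0.18 ± 0.19 (adjusted p = 0.799). Stat5a, the transcription factor below the growth hormone receptor, was at 18.5 to 28.6 against 26.5 to 32.1 CPM (0.40 ± 0.13, adjusted p = 0.299). Arntl, the core clock activator BMAL1, was at 1.36, 2.20, 1.67 and 2.21 CPM against 6.31, 3.23, 2.97 and 1.99 CPM, with 1 3-month library inside the 3-week range (0.95 ± 0.30, adjusted p = 0.287). Dbp, a clock output gene that peaks at another time of day, differed by 0.08 ± 0.21 (adjusted p = 0.929). Its difference was -0.34 without 3-week libraries 1 and 5 and 0.66 without 2 and 4. Of 19 clock and output genes 4 were higher (21.1%) and 1 was lower (5.26%) at an unadjusted p under 0.05, beside 3.45% and 5.63% of all genes. The median of that list was 0.056 with all libraries, 0.080 without 1 and 5 and -0.094 without 2 and 4. The median of the 18 growth hormone, IGF and thyroid genes was 0.058 with all libraries, 0.067 without 3-week libraries 1 and 5 and -0.074 without 2 and 4. The hour of collection is not given in the sources used here.

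**Figure D4:**
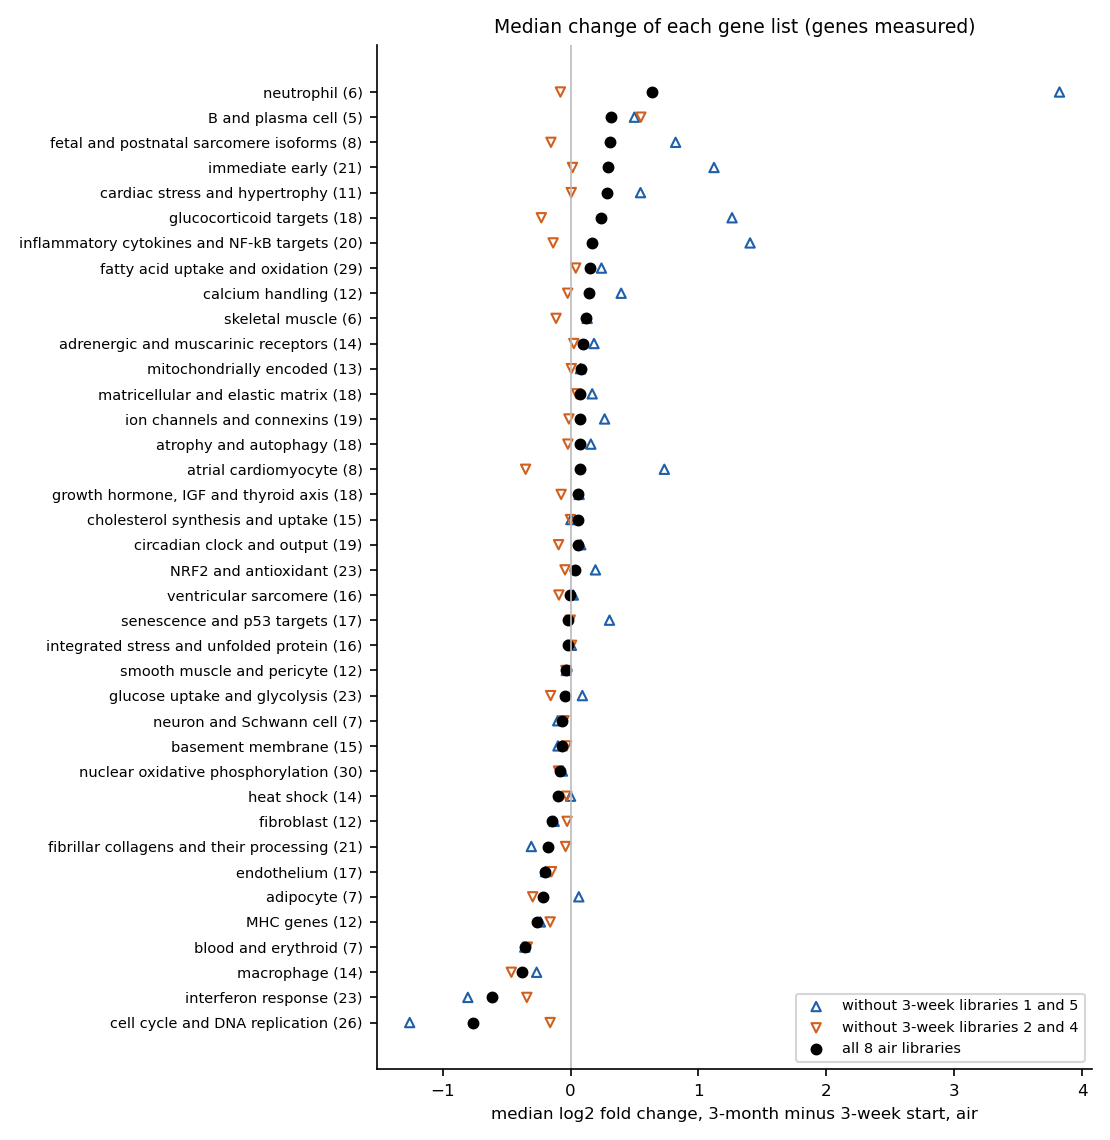
Median log2 difference (3-month minus 3-week start) of each gene list with at least 5 measured genes, with all 8 air libraries (black points), without 3-week libraries 1 and 5 (blue, pointing up) and without 3-week libraries 2 and 4 (orange, pointing down). The cell cycle, interferon and macrophage medians are negative in all 3 settings, while the inflammatory, glucocorticoid and neutrophil medians change sign.

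The difference between starting ages was also measured under vehicle and under nicotine, in libraries that share none with the air groups. Under vehicle 789 genes rose (5.09%) and 1144 fell (7.38%), and under nicotine 780 rose (5.03%) and 696 fell (4.49%). Of the 535 genes that were higher under air at an unadjusted p under 0.05, 371 had the same sign under vehicle (69.3%) and 405 under nicotine (75.7%), beside 67.5% and 69.2% of all genes. Of the 873 that were lower, 750 (85.9%) and 740 (84.8%) had the same sign.

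The size of the age difference under air was tested against that under each aerosol. Against vehicle 0 of 15500 genes passed by edgeR, with 1861 at an unadjusted p under 0.05 and 81 past the threshold by DESeq2. Leaving out 3-week vehicle library 4 gave 1472 genes, leaving out 3-week air library 2 gave 40 and leaving out 3-week air library 4 gave 71. Against nicotine 21 genes passed (0.135%), 5 with a more positive and 16 with a more negative difference under air. This count was 0 without 3-week nicotine library 3, 3-month air library 5, or 3-month nicotine library 2 or 4, and 199 and 131 without 3-week air library 4 and 2. It lay between 1 and 10 when any other library of these 4 groups was left out, except 3-month nicotine library 3 (24).

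Rit1, a small GTPase of the Ras family, stood under air at 53.5 to 68.9 CPM in the 3-week and 48.5 to 69.0 CPM in the 3-month libraries. Under nicotine it fell by 0.89, from 86.9 to 99.0 CPM down to 45.5 to 54.5 CPM, and the air minus nicotine difference was 0.87 ± 0.14 (adjusted p = 0.0213). Vwc2 and Zc3h6, a zinc finger protein, leaned upward under air (1.11 and 0.56) and downward under nicotine (-0.56 and -0.52), with differences of 1.67 ± 0.28 and 1.09 ± 0.19 (adjusted p = 0.0213 each). Abra, an actin-binding activator of serum response factor signalling in striated muscle, was at 60.3 to 158 CPM in the 3-week and 82.7 to 127 CPM in the 3-month air libraries, and it rose by 1.95 under nicotine (difference -2.03 ± 0.33, adjusted p = 0.0213). Cd93, an endothelial receptor, was at 147 to 203 against 141 to 175 CPM under air, while the 3-week nicotine libraries held 86.8 to 104 CPM and the 3-month ones 163 to 189 CPM (difference -1.02 ± 0.17, adjusted p = 0.0213). Col4a1, Nr4a3 and Atf3, the last a stress-induced transcription factor, were among the others (differences -1.01, -6.09 and -4.96; adjusted p = 0.0302 each). Abra, Nr4a3 and Atf3 were split in the 3-week air group, with Atf3 at 141, 18.5, 3.68 and 99.1 CPM in libraries 1, 2, 4 and 5. Without libraries 1 and 5 Nr4a3 rose under air by 3.32 (edgeR adjusted p = 0.00204) and Abra by 0.58 (adjusted p = 0.122), the sign seen under nicotine. Without libraries 2 and 4 they differed by -0.98 and -0.52. For Cd93 and Col4a1 all 4 3-week air libraries, 2 and 4 included, lay above every 3-week nicotine library: Col4a1 was at 616 to 714 CPM in the former and 296 to 407 CPM in the latter.

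**Figure D5:**
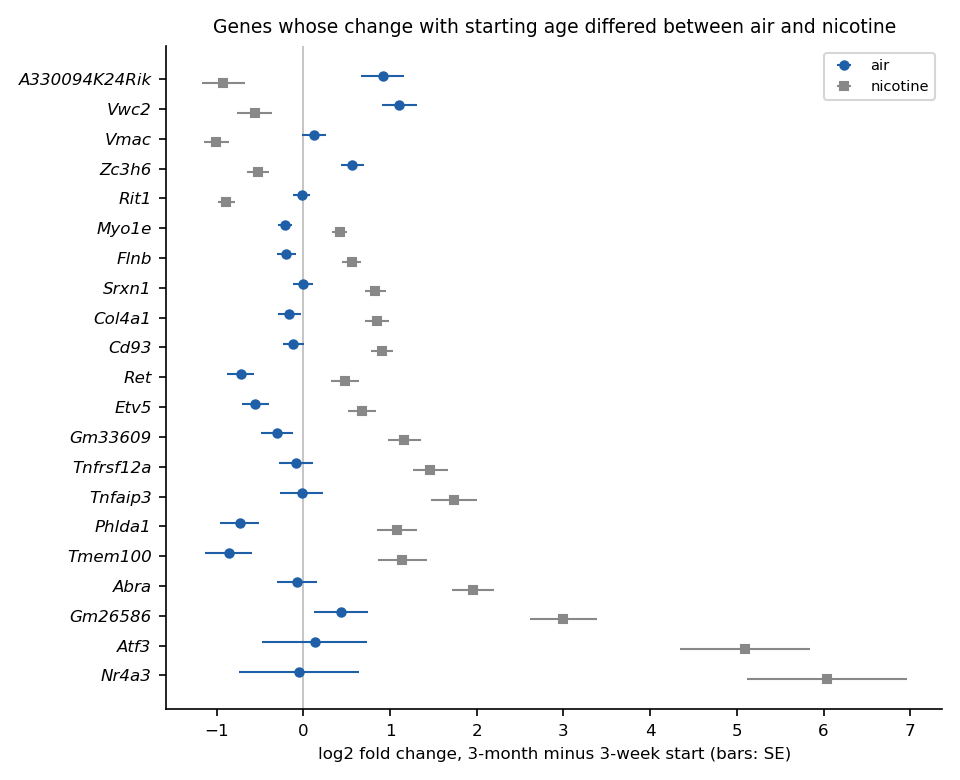
Log2 difference between the 3-month and 3-week start under air (circles) and under nicotine (squares), with SE bars, for the 21 genes whose difference was unequal between the treatments at an adjusted p under 0.05. The signs are opposite for most of these genes, Vwc2, Zc3h6 and Ret among them. Rit1 and Cd93 lie near 0 under air and apart from it under nicotine.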

How the data were processed

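RNA of 23 left ventricle libraries was measured, and 8 of them, in 2 groups of 4, form the comparison. The authors deposited raw read counts per gene for 49315 genes. The tools named in the submitters' processing notes are Trimmomatic 0.36, DESeq2, STAR 2.5.2b and, from Subread 1.5.2, featureCounts. Genome build, annotation and strandedness: not given in the sources used here. Reads of overlapping and antisense genes therefore cannot be told apart. Gene IDs were matched to symbols of GENCODE release M21, and 49056 had one. Counts were fitted with edgeR 4.0.16 (R 4.3.3; robust quasi-likelihood, TMM scaling, 6 groups, 17 residual degrees of freedom) on the 15500 genes kept by filterByExpr at a minimum count of 10, with Benjamini-Hochberg adjustment over all of them and a threshold of 0.05. Alternatives used DESeq2 1.42.0, limma 3.58.1 and the settings named in the closing section. The scripts were tested on simulated counts. CPM values here were computed from the counts with TMM scaling. No 2 libraries of a group agreed within sampling noise. Members, gene lists and tests were chosen with earlier results of these data known. The rule for named genes took those past the threshold, the 5 with the smallest p in a direction with fewer calls (mean log2 CPM of at least 1, no predicted models), 18 followed heart genes and up to 5 genes for each difference between treatments. Other genes named were taken from the lists after their values were seen. Promoter letters are from RefSeq; the 3 motifs shown in the report were added after the data were seen. The E-box (CACGTG), D-box, cAMP response element and serum response element were searched in the same windows, and the E-box was in 6 of 21 windows of the clock list against 7.15% of all. Depth was 13394536 to 17821550 counts in each air library, so a gene at 1 CPM rests on few counts.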

Additional observations from a re-analysis of the deposited data

Results flagged for a closer look

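Ucp3 in 3-month air library 4 stood apart from its group: 136.81 CPM against 73.5 CPM in the next library, a gap of 0.833 of the group's range. It was the only one of 64 gene and group combinations checked that passed this limit, and chance flags about 1 in 20 groups.

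By the test of the difference itself, the change with starting age differed between air and nicotine for 21 genes, Ret, Col4a1, Nr4a3 and Atf3 among them. The 5 with the smallest p were Rit1 (0.87), Abra (-2.03), Cd93 (-1.02), Vwc2 (1.67) and Zc3h6 (1.09). These values are on the log2 scale, each with an edgeR adjusted p of 0.0213. Each of these 5 lost its call in at least 4 of the settings that left out 1 library, with adjusted p up to 0.0635.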

How the results depend on the processing

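The count of 1 gene for the comparison under air was 1 with RLE scaling, without a filter, at a minimum count of 30 and with a gene length offset. It was 42 by DESeq2, 1304 by limma voom with sample quality weights (1343 on the 8 air libraries) and 0 by edgeR on the 8 air libraries (1514 at an unadjusted p under 0.05). Without 3-week libraries 1 and 5 it was 849, a setting planned with earlier results of these data known. Without libraries 2 and 4 it was 2, a setting chosen after seeing the data. Leaving out 1 library gave 0 to 68. The quality weights were 0.328 and 0.52 for 3-week libraries 1 and 5 and 1.41 and 1.59 for 2 and 4. Of the 849 genes, 626 (73.7%) were among the 1304, which is 48% of those, and 39 of the 42 DESeq2 genes were among the 849. With the replicate number as a block the count was 0 (1158 at an unadjusted p under 0.05). Same-numbered libraries correlated at -0.137, -0.176, 0.173 and -0.205 in their deviations from the group mean, and pairs with different numbers at -0.161 to 0.208. Whether a shared number stands for a shared cage, day or batch was not tested. The air minus vehicle count was 81 by DESeq2 and 0 to 1472 with 1 library left out. The air minus nicotine count was 36 with RLE scaling, 213 by DESeq2 and 0 to 199 with 1 library left out.

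Of 532 recomputed values of 28 named genes, 441 kept their direction and side of the threshold, 57 gained and 9 lost a call (all 9 Apod) and 25 changed sign. Without 3-week libraries 1 and 5 the changed signs were Nppa 0.31, Nppb 0.018, Nr4a3 3.32 and Dbp -0.34; without 2 and 4 they were Myh6 -0.10, Acta1 -0.071 and Atp2a2 -0.056. By voom with weights they were Nppb 0.077, Nr4a3 2.67 and Dbp -0.11 (0.084, 2.76 and -0.15 on 8 libraries), and with the replicate block Nr4a3 1.18. With 1 library left out Nppb ranged from -0.32 to 0.023, Myh6 from -0.0068 to 0.15, Postn from -0.11 to 0.17, Nr4a3 from -0.44 to 0.86 and Dbp from -0.14 to 0.35. The subset fits hold fewer libraries, and the cause of the sign changes was not tested in any setting. Depth limits genes near 1 CPM, such as Aurkb.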
